A study of Rattus norvegicus with 3 samples.

Results

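A set of 53 genes was lower in rat testis on postnatal day 8 than on both day 6 and day 10. These genes were chosen by their measured pattern: a curated (NM) RefSeq probe set had an intensity of at least 300 on days 6 and 10, and its day 8 intensity was at most 1/1.5 of each of those. Of 4943 curated probe sets at 300 or more on days 6 and 10, 75 passed (1.52%). Of these, 68 could be matched to a gene symbol. Of the 68, 15 were left out by name, because they belong to families described by their prefix (5 RT1, 2 Ccl, 1 Cxcl, 2 Cebp, 2 Fos, 1 Jun, 1 Il1 and 1 Ccn genes). The other 7 of the 75 had no symbol, so the name rule could not be applied to them and they were kept out. The remaining 53 genes each had 1 probe set in the set, out of 26419 probe sets on the array.

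Testis was taken from Wistar-Imamichi rats, a laboratory stock, on postnatal days 6, 8 and 10, with the day of birth counted as day 1. No group was treated. Total RNA of each day was labelled with Cy3 and hybridised to 1 NimbleGen one-colour array, and the labels do not say how many animals gave each RNA. The series was made to follow gene expression in the young testis, with a fold change of 2 between days as its screen.

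In the young testis, Sertoli cells enclose spermatogonia within cords. Around the cords lie steroid-making Leydig cells, contractile peritubular cells, vessels and immune cells. A gene that is low on 1 day between 2 days of higher level follows no steady maturation course. Genes known for passing changes of this kind include the immediate early factors, acute phase proteins and cytokines, whose messages are made and removed quickly in many tissues. Cytokines such as Lif act on their receptors at the cell surface, and AP-1, made of Fos and Jun proteins, binds the letters TGACTCA before many of the genes that respond.

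Since each day has 1 array, the spread between animals is unknown, the differences lack a replicate check and no test was possible. Both steps of the dip use the same day 8 array, so the day, its animals and its array cannot be told apart, and the 2 steps are not separate evidence of a dip. In whole tissue, fewer cells of a type and less RNA per cell cannot be told apart either. Median intensities over all probe sets were between 203 and 221, and Pearson's r of log2 intensities across probe sets was 0.990 for day 8 with day 6, 0.966 for day 10 with day 8 and 0.967 for day 10 with day 6. The random-sequence control read between 24.6 and 25.6. Testis markers were present on all days: the summed intensity of 9 Sertoli cell markers was between 70709 and 90525, that of 6 Leydig cell markers between 11955 and 27599, and that of 3 germ cell markers between 3174 and 5713.

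The promoters of 40 of the 53 genes were found in RefSeq (build GRCr8), each from 250 bases before to 50 after the annotated start. Shown here are 5 of them, because they carry the promoter features discussed further on. Ptprn, the member with the deepest dip among those with a promoter entry, lies at chr9:84204774-84205073 on the minus strand. The other windows are those with the AP-1 motif: Tmem54 at chr5:146733307-146733606 on the plus strand, Sqor at chr3:130299981-130300280 on the plus strand, Pir at chrX:33851000-33851299 on the minus strand and Dnajc18 at chr18:27577486-27577785 on the minus strand. All are written 5′ to 3′ on the gene's strand. Capitals mark the core of the cAMP response element (TGACG on either strand) in Ptprn and the AP-1 motif (TGACTCA on either strand) in the others.
Ptprn: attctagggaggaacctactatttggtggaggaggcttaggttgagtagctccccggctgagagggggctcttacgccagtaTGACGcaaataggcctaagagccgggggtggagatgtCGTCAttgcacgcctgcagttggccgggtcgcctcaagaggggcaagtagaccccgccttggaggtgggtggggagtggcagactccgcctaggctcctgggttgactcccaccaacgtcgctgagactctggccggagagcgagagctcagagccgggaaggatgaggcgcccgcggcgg
Tmem54: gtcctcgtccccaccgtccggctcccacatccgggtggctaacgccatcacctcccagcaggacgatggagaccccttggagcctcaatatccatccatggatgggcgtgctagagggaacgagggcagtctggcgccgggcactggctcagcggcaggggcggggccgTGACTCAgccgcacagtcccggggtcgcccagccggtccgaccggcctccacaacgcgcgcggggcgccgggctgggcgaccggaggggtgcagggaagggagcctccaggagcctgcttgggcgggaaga
Sqor: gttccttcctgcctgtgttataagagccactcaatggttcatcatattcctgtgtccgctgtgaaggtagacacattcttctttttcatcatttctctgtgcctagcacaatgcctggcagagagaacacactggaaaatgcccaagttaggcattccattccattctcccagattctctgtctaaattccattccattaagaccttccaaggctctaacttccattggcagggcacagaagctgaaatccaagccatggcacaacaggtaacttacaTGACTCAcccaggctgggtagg
Pir: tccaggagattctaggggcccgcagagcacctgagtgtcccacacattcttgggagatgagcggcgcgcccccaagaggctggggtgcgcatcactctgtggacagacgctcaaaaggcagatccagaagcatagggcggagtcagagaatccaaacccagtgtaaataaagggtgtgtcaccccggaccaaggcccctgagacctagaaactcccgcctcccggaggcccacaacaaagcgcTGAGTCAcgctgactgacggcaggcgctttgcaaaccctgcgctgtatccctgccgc
Dnajc18: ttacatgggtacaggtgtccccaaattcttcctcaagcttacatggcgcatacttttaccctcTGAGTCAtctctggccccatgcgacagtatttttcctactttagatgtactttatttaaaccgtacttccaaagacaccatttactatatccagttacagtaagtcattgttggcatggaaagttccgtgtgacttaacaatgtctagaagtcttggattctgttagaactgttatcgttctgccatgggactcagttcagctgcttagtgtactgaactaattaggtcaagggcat

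The dips were mostly shallow. The smaller of a member's 2 steps had a median of 1.61-fold and ran between 1.5-fold (Nucb2) and 3.24-fold (Lif). On the log2 scale the members' median difference was -0.71 for day 8 minus day 6 and 0.94 for day 10 minus day 8, against 0.04 and -0.02 over all 4943 probe sets, and the rule itself fixed these directions. Of the members, 11 were at least 2-fold lower on day 8 than on day 6 (0.566% of all tested probe sets), 22 were at least 2-fold higher on day 10 than on day 8 (2.87%), 6 did both and 26 neither. Since the rule used these contrasts, the counts only describe the members. Where a gene had 2 or more probe sets, they varied around their mean log2 difference with a pooled SD of 0.23 for day 8 minus day 6 and 0.37 for day 10 minus day 8 (51 genes), while the ratio of 1.5 corresponds to 0.58. These probe sets were read on the same 3 arrays, and those of a gene can stand for different transcripts. This SD thus holds no variation between animals or arrays and is not the error of a dip.

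**Figure D1:**
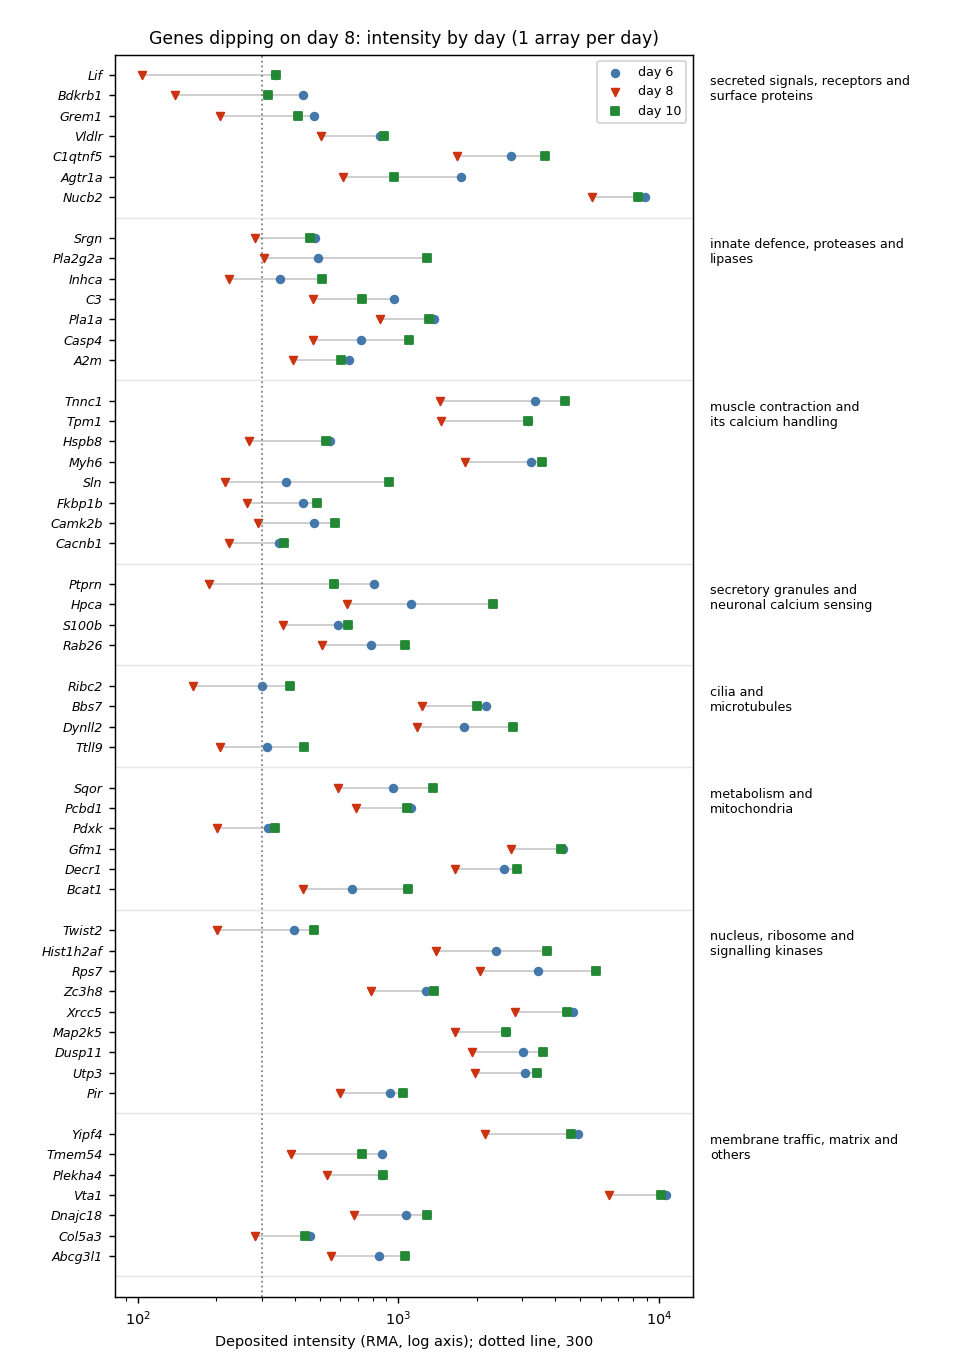
Deposited intensity (log axis) of 52 of the genes on day 6 (circles), day 8 (triangles) and day 10 (squares), 1 array per day, grouped by known role and ordered by depth of the dip within each group. Day 8 is the lowest point in every row, as the rule demands, while day 10 lies to the right of day 6 in 34 rows and to its left in 18.

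**Figure D2:**
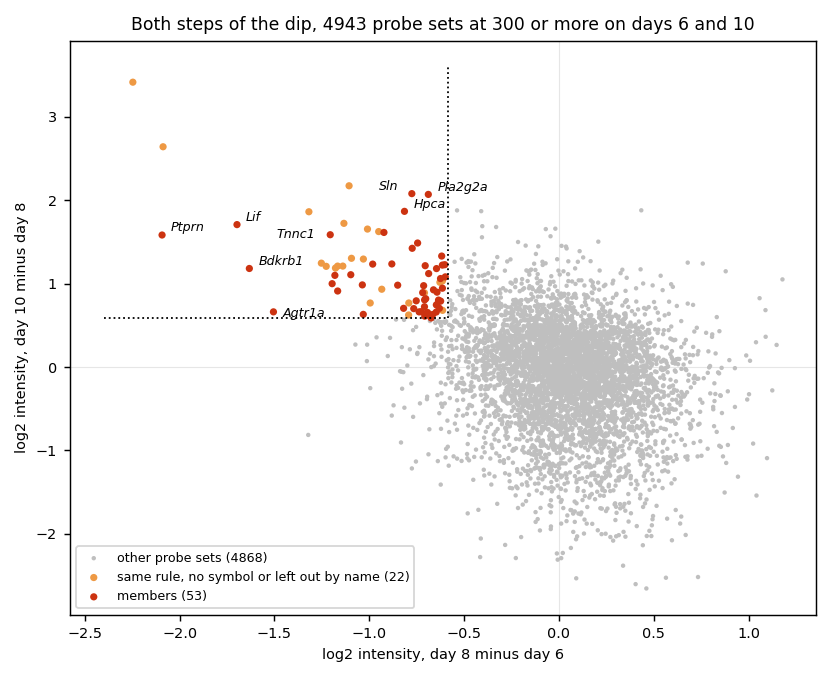
The log2 difference of day 8 minus day 6 against that of day 10 minus day 8 for 4943 curated probe sets, with the 53 members in red, the 22 probe sets that passed the same intensities but had no symbol or an excluded name in orange, and the rule's borders dotted. Both axes share the day 8 array; most members lie close to the corner of the border, and Ptprn, Lif, Bdkrb1 and Agtr1a lie farthest to the left among them.

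The mirror pattern was about as frequent. A peak on day 8, with days 6 and 10 each at most 1/1.5 of a day 8 intensity of at least 300, was met by 81 of 5253 curated probe sets (1.54%), or 74 genes after the same naming rule. Among predicted (XM) probe sets, which the rule did not use, 200 of 6435 dipped (3.11%) and 153 of 7115 peaked (2.15%). Dips were more frequent among dim probe sets: 4.28% of the 467 with a geometric mean of days 6 and 10 between 300 and 600 dipped, 3.18% of 911 between 600 and 1200, 0.820% of 1098 between 1200 and 2400, 1.28% of 1090 between 2400 and 4800, and 0.218% of 1377 above. In these classes of intensity lay 15, 17, 6, 13 and 2 of the members. The part of measurement error in dim probe sets was not tested.

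The signals and receptors among the members held the deepest dip. Lif, a cytokine of the interleukin 6 family that keeps stem and germ cells in culture, had intensities of 336, 104 and 338 on days 6, 8 and 10. It was 3.24-fold lower on day 8 than on day 6 and 3.27-fold higher on day 10 than on day 8, so that day 10 lay within 1.01-fold of day 6. Bdkrb1, the bradykinin receptor that appears after injury, had 432, 139 and 316, and was 3.10-fold lower on day 8 than on day 6 and 2.27-fold higher on day 10 than on day 8. Grem1, a secreted antagonist of bone morphogenetic proteins, had 473, 207 and 413, with steps of 2.29-fold and, just short of the 2-fold count, 2.00-fold. All 3 had day 8 values under 300, and on day 10 Bdkrb1 was at 0.732 and Grem1 at 0.873 of day 6.

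Agtr1a, an angiotensin receptor, was the member that regained least. Its intensities were 1736, 612 and 967, 2.84-fold lower on day 8 than on day 6 and 1.58-fold higher on day 10 than on day 8, which left day 10 at 0.557 of day 6. Vldlr, a lipoprotein and reelin receptor, had 854, 507 and 878, and C1qtnf5, a secreted protein related to complement C1q, had 2700, 1677 and 3646. Nucb2, the precursor of nesfatin, had 8822, 5529 and 8312. The smaller step of these 4 genes ran from 1.5-fold in Nucb2 to 1.68-fold in Vldlr, and C1qtnf5 was 1.35-fold higher on day 10 than on day 6.

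Lif was set beside the rest of its pathway. Of 14 genes of LIF and interleukin 6 signalling on the array, 8 were at 300 or more on days 6 and 10, and Lif alone passed the dip rule. Osmr, the oncostatin M receptor chain, had 443, 292 and 422, short of the rule on its second step. Timp1, an inhibitor of metalloproteinases induced by this family, had 3414, 2390 and 3710, short of it on the first. Lifr, the Lif receptor, had 878, 756 and 471, and its partner chain Il6st 2199, 2041 and 1486, so that both were lowest on day 10. Stat3, which carries the signal to the nucleus, was also lowest on day 10 (2342, 1558 and 998). Of the 8, 3 (Lif, Osmr and Timp1) were lowest on day 8 at any size, against 25.1% of all tested probe sets.

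Proteins of innate defence, proteolysis and lipid breakdown made a further group of 8. Pla2g2a, a secreted phospholipase, had 493, 306 and 1285, a small first step of 1.61-fold and a second step of 4.20-fold. C3, the central complement protein, ran the other way, with 962, 470 and 729, 2.04-fold lower on day 8 than on day 6 and 1.55-fold higher on day 10 than on day 8. Members of this group thus differed in which step was the larger.

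Casp4, an inflammatory caspase, had 719, 470 and 1096, and Inhca, a transferrin-like inhibitor of carbonic anhydrase, had 351, 224 and 508. A2m, a protease inhibitor that is an acute phase protein in the rat, had 645, 395 and 603. Srgn, the proteoglycan of granules in blood cells, had 480, 283 and 459, and Pla1a, a phospholipase that acts on phosphatidylserine, had 1371, 848 and 1311. Pla2g2a, Casp4 and Inhca were higher on day 10 than on day 6, and C3, A2m, Srgn and Pla1a were lower.

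Immune cells were looked at beside this group. Of 19 macrophage and immune genes on the array, 13 were at 300 or more on days 6 and 10, 4 passed the intensity rule (Ccl2, Ccl7, Cxcl1 and Il1rn, all left out of the set by name), against 1.52% of all tested probe sets, and 7, these 4 among them, were lowest on day 8, against 25.1%. The summed intensity of 6 macrophage markers was 10730, 12083 and 13428 on days 6, 8 and 10, with 0 of them passing the rule, and that of 2 neutrophil markers was 63.4, 89.7 and 128, with both under 100 on every day. Of 4 mast cell markers on the array, Ms4a2, Cma1 and Tpsb2 were near the random control and Kit, which other cells also make, had 769, 927 and 244. The macrophage sum was lowest on day 6, and the neutrophil and mast cell lists were too dim to read.

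A list of targets of TGF-beta, bone morphogenetic protein and Notch signalling was read beside the antagonist Grem1. Of its 11 genes on the array, 10 were at 300 or more on days 6 and 10. Lowest on day 8 at any size were 7 of the 10, against 25.1% of all tested probe sets, and 1 of these 7 is a member, which the rule chose for that pattern. Id2, an inhibitor of helix-loop-helix factors, had 2063, 1445 and 2617, Id1 had 767, 686 and 1194, and Hes1, a Notch target, had 1788, 1275 and 1575. The 3 genes of the list that were not lowest on day 8 were higher on day 8 than on day 6. Smad7, an inhibitor of TGF-beta signalling, had 2313, 2721 and 1472, Bambi, a decoy receptor, had 2118, 3412 and 3775, and Ankrd1 had 657, 841 and 1460.

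Genes of muscle contraction and its calcium handling numbered 8. Tnnc1, the troponin C of heart and slow muscle, had 3348, 1452 and 4359 on days 6, 8 and 10, 2.31-fold lower on day 8 than on day 6 and 3.00-fold higher on day 10 than on day 8. Myh6, the alpha myosin heavy chain of heart, had 3241, 1798 and 3549, with steps of 1.80-fold and 1.97-fold. A probe set of Tpm1, a tropomyosin of striated and smooth muscle, had 3136, 1466 and 3156, with steps of 2.14-fold and 2.15-fold. Day 10 was within 1.30-fold of day 6 in all 3. Myh6 has a close relative, Myh7, so that part of its signal may be shared.

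The calcium handling members were dimmer. Sln (sarcolipin), a small inhibitor of the sarcoplasmic calcium pump, had 372, 217 and 918, with a first step of 1.71-fold and the largest second step of the set, 4.23-fold. Fkbp1b, which binds the ryanodine receptor, had 432, 262 and 487, and Cacnb1, a subunit of voltage-gated calcium channels, had 348, 225 and 366. A probe set of Camk2b, a calcium-activated kinase, had 477, 291 and 572. Hspb8, a small heat shock protein of muscle, had 548, 267 and 529, 2.05-fold lower on day 8 than on day 6 and 1.98-fold higher on day 10 than on day 8. In 7 of the 8 genes of the group day 10 was above day 6, Hspb8 being the exception. The share was 50.2% among all tested probe sets and 66.0% among all members. The order of these days also moved with the scaling. For Hspb8 the log2 difference of day 10 minus day 6 was -0.05 as deposited and 0.06 with array medians aligned. The groups were made after the values were seen, so the count only describes this group.

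Markers of muscle were read beside them. Of 10 skeletal muscle genes on the array (11 probe sets), 1 probe set, that of Tnnt3, was at 300 or more on days 6 and 10, 0 passed the rule and 6 probe sets were under 100 on every day. The summed intensity of the list was 1275, 1104 and 3809 on days 6, 8 and 10. Acta1, skeletal actin, had 226, 121 and 899, and Mb, myoglobin, had 136, 79.1 and 865, both lowest on day 8 but under the minimum of 300 on day 6. The list was not uniform, since Tnnc2 had 227, 241 and 894 and was higher on day 8 than on day 6. Tnni2 and Myh3, both under 100 on every day, were also higher on day 8 than on day 6. Of 18 probe sets of the peritubular and smooth muscle list, 17 were at 300 or more on days 6 and 10, 8 were lowest on day 8, against 25.1% of all tested probe sets, and the Tpm1 probe set alone passed the rule. Of these 8, 5 were probe sets of Tpm1 itself, which share a gene. The summed intensity of all 18 probe sets of that list was 194475, 166899 and 169723. The part of muscle tissue in these members was not tested.

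Tpm1 was the member with the most other probe sets, made for other RefSeq transcripts of the gene. None of the 8 others passed the rule, although all were lower on day 8 than on day 6, by between 1.02-fold and 1.58-fold. On day 10, 4 of the 8 were above day 8, by 1.16-fold at most, and the lowest was at 0.482 of it. Camk2b had 2 further probe sets. One had 360, 351 and 473 on days 6, 8 and 10, with day 10 at 1.35 times day 8, and the other had 1393, 1392 and 621, with day 10 at 0.446 times day 8. The other probe set of Map2k5 was 1.35-fold lower on day 8 than on day 6 and 1.17-fold higher on day 10 than on day 8. In all, 0 of the 11 other probe sets of these 3 genes passed, all 11 were lower on day 8 than on day 6 and 6 of the 11 were higher on day 10 than on day 8. Over all 4943 tested probe sets these log2 differences had medians of 0.04 and -0.02. Of the 11, 8 share the gene Tpm1, and the 2 of Camk2b were only 1.00-fold and 1.02-fold lower on day 8 than on day 6. The 11 are thus not separate genes, and the counts only describe them. For the other 50 members there was no second probe set to compare.

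**Figure D3:**
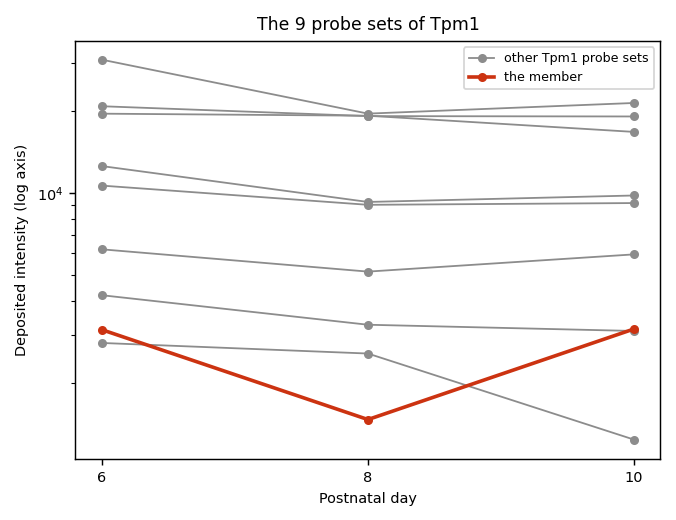
Deposited intensity (log axis) of the 9 Tpm1 probe sets on postnatal days 6, 8 and 10, 1 array per day, with the probe set that passed the rule in red. The red line drops on day 8 and returns on day 10; the 8 grey lines slope down by at most 1.58-fold to day 8, and 4 of them are higher on day 10 than on day 8.

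Heat shock genes were read beside Hspb8. Of 14 on the array, 13 were at 300 or more on days 6 and 10, and Hspb8 alone passed the rule, while 6, Hspb8 among them, were lowest on day 8 at any size, against 25.1% of all tested probe sets. The list's median difference was -0.17 for day 8 minus day 6 and 0.19 for day 10 minus day 8 on the log2 scale, against 0.04 and -0.02 over all tested. Dnajc18, a protein with a J domain, was a member outside that list and had 1073, 679 and 1289.

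Proteins of secretory granules and neuronal calcium sensing were 4. Ptprn, a membrane protein of dense-core granules in endocrine and nerve cells, had 804, 189 and 565, 4.26-fold lower on day 8 than on day 6, the largest first step of the set, and 3.00-fold higher on day 10 than on day 8. Its promoter holds 2 cores of the cAMP response element, beginning 168 and 131 bases before the start. Rab26, a GTPase of secretory granules, had 787, 510 and 1065. Hpca (hippocalcin), a neuronal calcium sensor, had 1119, 636 and 2320, 1.76-fold lower on day 8 than on day 6 and 3.65-fold higher on day 10 than on day 8. S100b, a calcium-binding protein of glia and fat, had 589, 362 and 639. Of 4 nerve and Schwann cell markers on the array, 0 passed the rule, and their summed intensity was 2189, 2006 and 1281, lowest on day 10.

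Hpca and Tmem54, a membrane protein, are neighbours on chromosome 5 that point towards each other in RefSeq, with ends that overlap. Tmem54 had 869, 387 and 728, 2.24-fold lower on day 8 than on day 6 and 1.88-fold higher on day 10 than on day 8. It was lower on day 10 than on day 6 while Hpca was 2.07-fold higher. They were the only members with starts within 1 Mb of each other, and the 53 genes lay on 19 chromosomes, with at most 7 on one, chromosome 8.

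Proteins of cilia and microtubules were Ribc2, Bbs7, Ttll9 and Dynll2. Ribc2, which lines the microtubules of cilia, had 301, 163 and 385, and its day 6 value just met the minimum. Bbs7, a subunit of the BBSome that carries cargo into cilia, had 2181, 1236 and 2013. Ttll9, which adds glutamate chains to tubulin, had 313, 206 and 437, and Dynll2, a light chain of dynein, had 1793, 1181 and 2764. Day 10 was above day 6 in all but Bbs7, against 50.2% of all tested probe sets.

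Enzymes and mitochondrial proteins dipped by similar, small amounts, with smaller steps between 0.62 and 0.71 on the log2 scale. Sqor, which oxidises sulphide in mitochondria, had 957, 587 and 1363, and Bcat1, which transfers the amino group of branched amino acids, had 663, 432 and 1086. Decr1, an enzyme of unsaturated fatty acid oxidation, had 2549, 1654 and 2860. Day 10 was above day 6 in these 3, by 1.42-fold, 1.64-fold and 1.12-fold. Pcbd1, which recycles the biopterin cofactor, had 1116, 690 and 1086, Pdxk, which activates vitamin B6, had 315, 201 and 338, and Gfm1, a translation factor of mitochondria, had 4306, 2715 and 4204. In these the day 10 value was within 1.07-fold of day 6.

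Nuclear, ribosomal and kinase members were 9. Twist2, a transcription factor of mesenchyme, had 397, 201 and 473, 1.98-fold lower on day 8 than on day 6 and 2.35-fold higher on day 10 than on day 8. Rps7, a ribosomal protein, had 3442, 2053 and 5755, and Hist1h2af, an H2A histone, had 2382, 1393 and 3737. Both come from families with near-identical copies, so their signals may be shared with other genes. They were 1.67-fold and 1.57-fold above day 6 on day 10.

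The others of this group were within 1.19-fold of day 6 on day 10. Xrcc5, a Ku subunit of DNA end joining, had 4683, 2809 and 4441, Zc3h8, a zinc finger protein, had 1282, 785 and 1371, and Utp3, which processes ribosomal RNA, had 3064, 1973 and 3402. Dusp11, a phosphatase of RNA ends, had 3003, 1923 and 3583, and Pir (pirin), an iron-binding nuclear protein, had 928, 597 and 1042. A probe set of Map2k5, the kinase above Erk5, had 2583, 1649 and 2604. Of the 9, 8 were higher on day 10 than on day 6, Xrcc5 being the exception. The share was 50.2% among all tested probe sets and 66.0% among all members. This group, too, was made after the values were seen, so the count only describes it.

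The last group joined membrane traffic, matrix and less known proteins. Yipf4, a Golgi membrane protein, had 4894, 2158 and 4623, 2.27-fold lower on day 8 than on day 6 and 2.14-fold higher on day 10 than on day 8. Vta1, a partner of the ESCRT machinery that sorts membrane cargo, had 10704, 6471 and 10249. Plekha4, a phosphoinositide-binding protein, had 870, 532 and 878, and Col5a3, a chain of type V collagen, had 457, 281 and 439. Abcg3l1, of the ABC transporter family, had 846, 553 and 1064. Day 10 lay within 1.06-fold of day 6 in Yipf4, Vta1, Plekha4 and Col5a3. It was further from day 6 in Abcg3l1 (1.26 times day 6) and in the group's other members, Dnajc18 (1.2 times) and Tmem54 (0.838 times).

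The order of days 6 and 10 was not set by the rule. Day 10 was above day 6 in 35 of the 53 members, against 50.2% of all tested probe sets, and below it in 18. The members' median difference of day 10 minus day 6 was 0.12 on the log2 scale (middle 50% between -0.06 and 0.43), against 0.00 over all tested (-0.42 to 0.36). In 31 members (58.5%) day 10 was within 1.2 times day 6, against 36.1% of all tested. At least 1.5-fold above day 6 were 9 members (12.7% of all tested) and 1, Agtr1a, was as far below (18.6% of all tested). Pla2g2a, Sln and Hpca were more than 2-fold higher on day 10 than on day 6, by 2.60-fold, 2.47-fold and 2.07-fold, against 2.63% of all tested. Since a member had to be high on both days relative to day 8, these values are conditional on the rule. Aligning the array medians moved the median of all tested for this difference to 0.12 and that of the members to 0.23, with 46 members above day 6, while quantile normalization gave 0.02 and 0.15 (40 members) and cyclic loess normalization -0.01 and 0.14 (36 members).

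**Figure D4:**
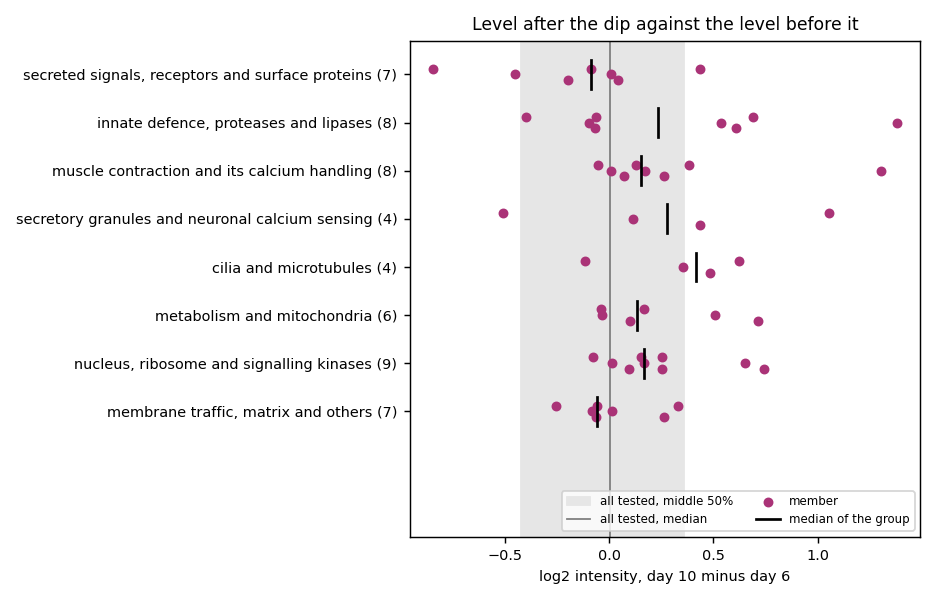
The log2 difference of day 10 minus day 6 for each of the 53 genes by role, with the group's median as a black bar, and the median and middle 50% of all 4943 tested probe sets as a grey line and band. Most members lie within the band; Pla2g2a, Sln and Hpca lie farthest to the right and Agtr1a farthest to the left.

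The border of the rule ran through a dense region. Just inside it, the smaller step was 1.5-fold for Nucb2, 1.52-fold for Ttll9, 1.52-fold for Dynll2, 1.53-fold for A2m and 1.53-fold for Abcg3l1. Just outside were Thoc1, Prps1l3, Pyroxd1, F3 and Prss12, with 1.49-fold, 1.49-fold, 1.49-fold, 1.49-fold and 1.48-fold. Between ratios of 1.4 and 1.5 there were 46 named genes outside the set, and 25 members lay between 1.5 and 1.6. The 7 probe sets without a symbol had dips of 0.61 to 2.09 on the log2 scale. The deepest of them, NM_206848, had 480, 113 and 706 on days 6, 8 and 10 and is unnamed here.

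Most lists of testis cell types and pathways held no member. At a pass share of 1.52%, a list of this size would often hold none, so an empty list says little about its genes. None of the tested genes of the Leydig cell (9), Sertoli cell (13), germ cell (6), endothelial (5), cholesterol biosynthesis (18), circadian clock (9), glucocorticoid target (8), extracellular matrix (10), metalloproteinase (8), cell cycle (12), glycolysis and hypoxia (16) or NF-kB feedback (8) lists passed the intensity rule, which 1.52% of all tested probe sets passed. Of 34 tested immediate early genes, 3 passed (Fos, Fosl1 and Junb) and 15 were lowest on day 8, against 25.1% of all tested probe sets. In the list of the integrated stress and unfolded protein response, 2 of 20 passed (Cebpb and Cebpd) and 9 were lowest on day 8, against the same 25.1%. All 5 of these genes were left out of the set by name. The mast cell, neutrophil and adipocyte lists had 0 genes at 300 or more on both days, so nothing could be read from them.

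Promoter letters, which the rule did not use, were read in the 40 windows and in those of 3881 tested genes. Of 13 motifs searched on both strands, AP-1 (TGACTCA) was found in 4 of the 40 (10.0%, 95% Wilson interval 3.96 to 23.1), against 3.53% of the tested genes' windows and 4.53% of all 27457 RefSeq windows. Among the genes that peaked on day 8 it was in 3 of 57 windows (5.26%). These 4 are Tmem54, Sqor, Pir and Dnajc18, printed above, where the motif begins 81 bases before, 28 after, 7 before and 187 before the start. Their deepest dip was that of Tmem54, and their smaller steps ran from 1.55-fold (Pir) to 1.88-fold. A match is a description of the letters and not a site of binding.

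Shares of the other motifs are given for the members first and the tested genes after. The core TGACG was in 32.5% of members' windows and 35.2% of tested ones, the full element TGACGTCA, which contains it, in 2.5% and 3.30%, CCAAT in 37.5% and 39.5%, GGGCGG in 57.5% and 65.4%, and TATAAA in 7.50% and 6.65%. The ETS motif CCGGAA was in 17.5% and 31.3% (95% Wilson interval of the members 8.75 to 31.9), the E-box CACGTG in 5% and 10.4%, and the NF-kB site, searched by its usual degenerate form, in 2.50% and 10.0%. TGATGCAA was in 2.50%, which is 1 window, that of Hist1h2af, and 0.721%, the NRF1 motif in 2.50% and 2.09%, and the CArG box and the heat shock element in none of the 40, against 0.979% and 0.541%. The members' windows had a median GC content of 57.8% and 15.5 CG pairs, against 61.0% and 22 among the tested genes.

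**Figure D5:**
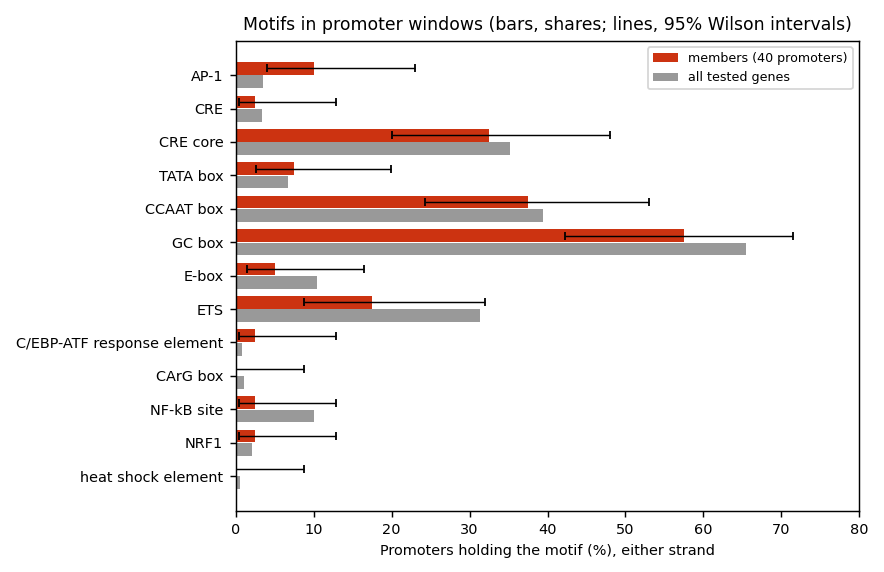
Share of promoter windows that hold each of 13 motifs on either strand, for the 40 members with a RefSeq window (red, with 95% Wilson intervals that cover counting error only) and for 3881 tested genes (grey). The AP-1 bar of the members is 10.0%, which is 4 windows, against 3.53%, and the ETS bar is 17.5% against 31.3%. The AP-1 interval starts at 3.96%, below the 4.53% of all RefSeq windows but above the 3.53% of the tested genes. No test was made of the 13 motifs, so the intervals do not single one out.

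The genomic span of the members, introns included, had a median of 26.7 kb, against 19.4 kb among 4772 tested probe sets with a symbol and 26.5 kb among the genes that peaked on day 8. Dipping and peaking genes thus had similar spans. They also had similar intensities on the days when they were high, with a median of 870 on day 6 and 1065 on day 10 for the dipping genes and 1102 on day 8 for the peaking ones, against 2458, 2357 and 2560 for all tested probe sets on those days.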

How the data were processed

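For each array the authors deposited a linear intensity per RefSeq accession. It was made by RMA, per the submitters' processing notes, which corrects background, normalizes between arrays and sums up probes. The RMA version is not given in the sources used here. The deposited series table equals the arrays' files (largest difference 0). RMA draws the arrays' distributions together, which hides a shift that most genes share. The second column, headed as a standard error, has no stated scale and was not used. The number of arrays limits the precision.

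Accessions without version were matched to RefSeq (GRCr8) for names: 9618 of 10113 curated ones matched. The files name no build. Each difference is the log2 intensity of the later day minus that of the earlier. The members, the 24 pathway and 13 marker lists and the motifs were chosen with earlier results of these data known, and the roles after their values were seen. The rule for named genes was all members and the 5 probe sets nearest outside the rule's border; values on each day, planned for the 25 deepest dips, the members nearest the border and the members in a list among others, are given for all 53 but 1, which is not reported here. Other genes of the lists, and those left out by name, were named after their values were seen. The rule was run on simulated data with small added noise and seeded dips. That run checks the code, and not how often noise alone would pass the rule. Alternatives were aligned medians, quantile and cyclic loess normalization (limma 3.58.1), intensity minima, ratios and a shorter promoter window. Counting probe sets without a symbol was added after seeing the data. Python 3.11.15 and pandas 2.3.3 were used.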

Additional observations from a re-analysis of the deposited data

How the results depend on the processing

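No paired analysis was possible because each day has 1 array. The set of 53 genes became 223 with no intensity minimum, 226 with a ratio of 5/4 and 6 with a ratio of 2 (Lif, Ptprn, Tnnc1, Bdkrb1, Yipf4 and Tpm1), while minima of 200 and 500 gave 64 and 38 and probe sets without a symbol brought it to 60. Aligned medians, quantile and cyclic loess normalization gave 68, 71 and 69 genes, with 52, 51 and 51 of the 53 among them, and all 53 stayed lowest on day 8. The mirror set of 74 peaking genes became 398 with a ratio of 5/4, 4 with a ratio of 2, and 61, 51 and 53 under these scalings, so that which of the 2 patterns was the more frequent depends on the scaling. It also depends on the naming rule, which in the deposited data took 75 dipping probe sets to 53 and 81 peaking ones to 74. Under the 3 scalings 11 to 12 members were at least 2-fold lower on day 8 than on day 6, and 29 to 31 at least 2-fold higher on day 10 than on day 8. In the window of 100 bases before to 50 after the start, the shares of the members' promoters were 0% for the full cAMP element, 12.5% for its core TGACG, 2.50% for TATAAA, 20% for CCAAT, 35.0% for the GC box and 0% for TGATGCAA; a shorter window holds fewer matches, also among all tested (22.6% for the core, against 35.2% in the longer window). AP-1 had 7.50%, against 1.37% of the tested. With 1 array per day, leaving out a sample was not possible. The 17 members with a day 8 intensity under 300 lay closest to the random control, between 24.6 and 25.6, and their ratios rest on the weakest signal.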
